A study of Arabidopsis thaliana with 4 samples.

Results

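XTH18 (AT4G30280), XTH19 (AT4G30290) and EXO (AT4G08950) are 3 Arabidopsis genes of cell expansion, out of 13286 genes that have a probe set of their own on an array of 22746 probe sets. Each was measured by 1 probe set. They were picked by name, through the platform's probe annotation, with earlier results of these data known. All 3 genes lie on chromosome 4, where XTH18 and XTH19 stand next to each other with no gene between them in the TAIR10.1 gene table. EXO is not an enzyme of xyloglucan by sequence family, so that only the XTH pair are xyloglucan enzymes in the strict sense.

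The samples were whole seedlings of 16 days, grown on agar plates and moved for 6 h to 40% polyethylene glycol (PEG), a polymer that withdraws water and so imposes osmotic stress. The mutant group, ced1, gave 2 one-colour Affymetrix arrays and the wild type, WT, gave 2, labelled as biological replicates 1 and 2 of each. Both groups carried the gl1-Col0 background, in which the trichome gene GL1 is mutated, and both received PEG. As background, ced1 is known as a line with a defect in the cuticle gene BODYGUARD and weak stress induction of the abscisic acid gene NCED3. No untreated seedlings were analysed here, so every difference is one between genotypes after PEG, and what existed before PEG was not separated from the response to it. In whole seedlings, fewer cells of a type and less RNA per cell cannot be told apart.

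Xyloglucan is the hemicellulose that coats and ties cellulose fibrils in the primary wall of flowering plants. Xyloglucan endotransglucosylase/hydrolases (XTHs) cut its chains and rejoin the cut ends to other chains, by which a wall can be loosened or rebuilt while a cell grows, and some members hydrolyse the chain instead. XTH18 and XTH19 belong to a small branch of the family known for expression in roots, and XTH19 is also known to respond to auxin. EXO (EXORDIUM) codes for a protein of the cell wall space that is induced by brassinosteroid hormones and is needed for full cell expansion in leaves. Brassinosteroids and auxin are both growth hormones whose known target genes include XTHs and expansins, while osmotic stress and abscisic acid generally slow expansion.

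After PEG all 3 genes were at a higher level in ced1 than in WT seedlings. EXO differed the most, at 3.80-fold by the ratio of mean signals, followed by XTH19 at 2.54-fold and XTH18 at 2.20-fold. For each of them both ced1 arrays lay above both WT arrays. The genotypes differed across much of the array, and 23.2% of the tested probe sets were called higher in ced1 and 19.2% lower, so a call alone does not set these genes apart.

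XTH18, of the root branch, had signals of 395.4 and 381.6 on the ced1 arrays, against 152.3 and 200.7 on the WT arrays. The groups did not overlap, and the lowest ced1 signal was 1.90 times the highest WT signal. The WT arrays lay farther apart than the ced1 arrays, with means of 388.5 ± 9.76 in ced1 and 176.5 ± 34.2 in WT (SD, n = 2 each). On the log2 scale of signal + 16, on which all tests were made, the difference of ced1 minus WT was 1.08 ± 0.19 (SE), with a 95% confidence interval of 0.63 to 1.54 (limma, Benjamini-Hochberg adjusted p = 0.00463).

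XTH19, its neighbour and close relative, had signals of 1374.7 and 1294.2 on the ced1 arrays, against 479.9 and 572.6 on the WT arrays. Again no WT array reached a ced1 array, the lowest ced1 signal being 2.26 times the highest WT signal. The means were 1334 ± 56.9 in ced1 and 526.2 ± 65.5 in WT (SD, n = 2 each). The log2 difference was 1.32 ± 0.15 (SE), with an interval of 0.96 to 1.68 (limma adjusted p = 9.04e-04).

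EXO, the brassinosteroid-induced gene, had signals of 659.1 and 702.4 on the ced1 arrays, against 177.3 and 181.3 on the WT arrays. The WT arrays were nearly equal and the lowest ced1 signal was 3.64 times the highest WT signal. The means were 680.8 ± 30.6 in ced1 and 179.3 ± 2.83 in WT (SD, n = 2 each). The log2 difference was 1.83 ± 0.16 (SE), with an interval of 1.46 to 2.20 (limma adjusted p = 3.25e-04). The mean WT signals of XTH18, XTH19 and EXO all lay above the low-signal filter, a signal of about 102.7, so none of them was tested only because of a high ced1 level.

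**Figure D1:**
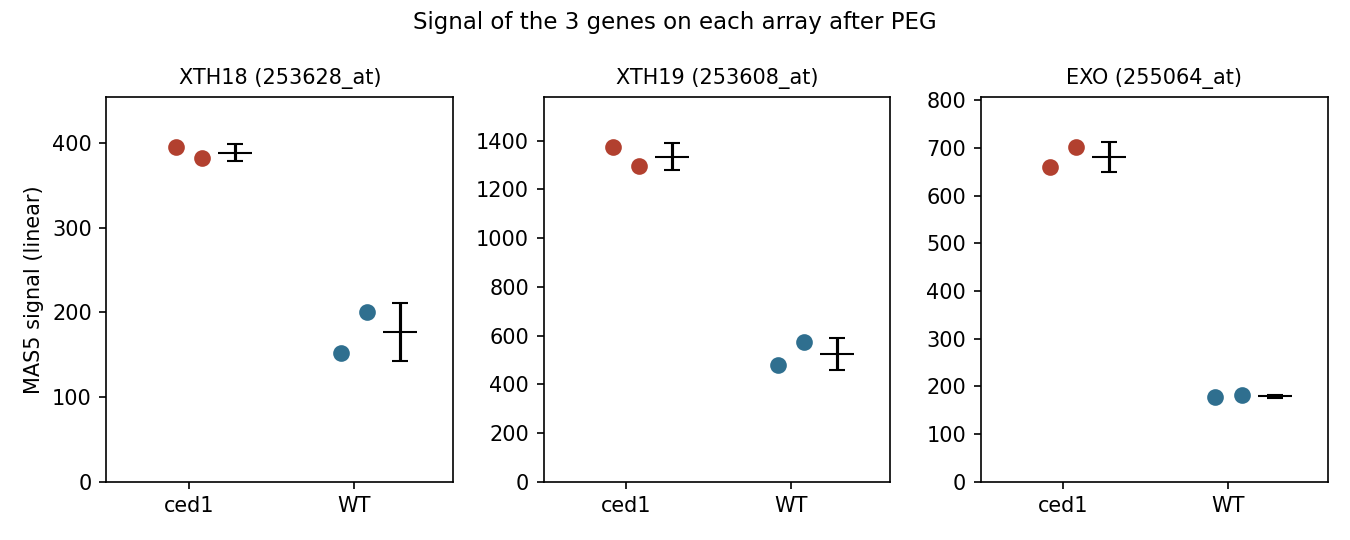
MAS5 signal (linear, from 0) of XTH18, XTH19 and EXO on each array, ced1 left and WT right of each panel; coloured points are single arrays, and the black mark with bars is the mean ± SD of 2 arrays. In each panel both ced1 points lie above both WT points, by the widest ratio for EXO (3.64 between the nearest arrays) and the narrowest for XTH18 (1.90).

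Both ced1 signals lay above both WT signals for 3 of the 3 genes, against 41.1% of all tested probe sets, and 3 of 3 were called higher, against 23.2%. Since the genes were picked with earlier results of these data known, these shares are a description and not a test. Within all 13648 tested probe sets, differences at least as large as that of XTH18 were found for 7.71%, as that of XTH19 for 4.74% and as that of EXO for 1.94%. Over the whole set of tested probe sets the median difference was 0.07. Setting the array medians equal moved that median by -0.18, to -0.10, and with it the calls to 2154 higher and 3452 lower, against 3161 higher and 2626 lower as deposited. Relative to the median of all tested probe sets, XTH18, XTH19 and EXO stood at 1.01, 1.25 and 1.76 as deposited and at 1.01, 1.24 and 1.76 with equal medians. Equal medians shift nearly all log2 differences by the same amount, so this match follows from the scaling and is not a separate check.

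**Figure D2:**
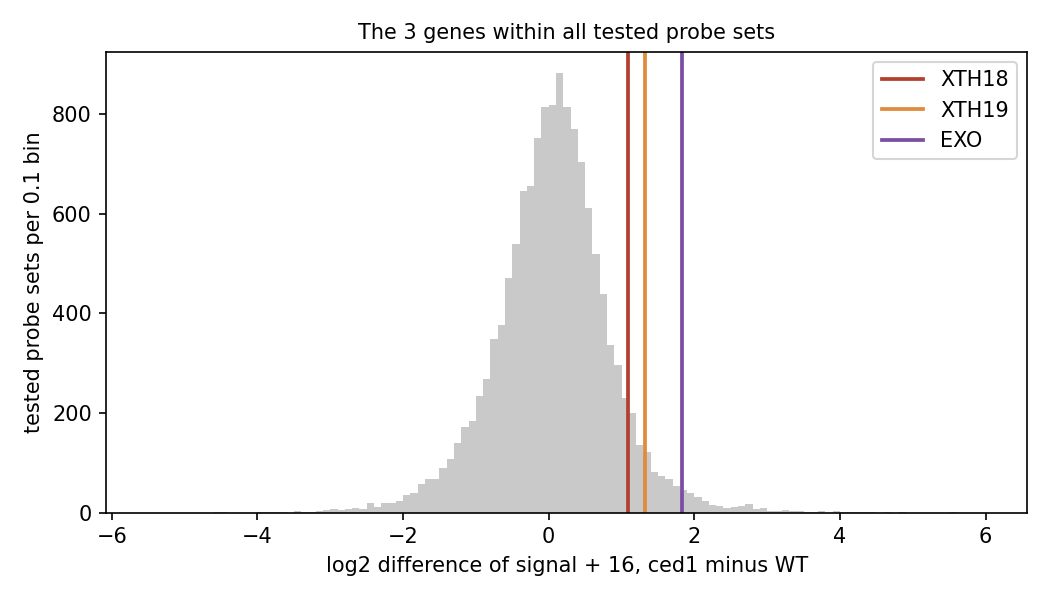
Number of tested probe sets (y axis) per 0.1 bin of the log2 difference of signal + 16, ced1 minus WT (x axis), with vertical lines at XTH18 (1.08), XTH19 (1.32) and EXO (1.83). All 3 lines lie in the right-hand tail, beyond which 7.71%, 4.74% and 1.94% of the 13648 probe sets are found.

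The arrays themselves fell by genotype. Across the tested probe sets, Pearson's r of the log2 signals was 0.989 for the pair of ced1 arrays, 0.970 for the pair of WT arrays and 0.839 to 0.874 for arrays of unlike genotype. The mutated gene gave no check of the labels, because it has no single-gene probe set in the annotation used here. The gap between the WT arrays for XTH18, 0.36 on the log2 scale, was as large as or larger than that of 68.2% of tested probe sets, while the gap for EXO, 0.03, was so for 6.86%. Those of the ced1 arrays were between 0.05 and 0.09 for XTH18, XTH19 and EXO.

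Whether these genes changed by unequal amounts was asked within each array, where a common scaling factor nearly cancels. The log2 difference of EXO minus XTH18 was 0.71 and 0.85 on the ced1 arrays, against 0.20 and -0.14 on the WT arrays. EXO thus differed between genotypes by 0.75 more than XTH18 did. For EXO minus XTH19 the values were -1.04 and -0.87 on the ced1 arrays and -1.36 and -1.58 on the WT arrays, a change of 0.51. For XTH19 minus XTH18 they were 1.76 and 1.72 on the ced1 arrays and 1.56 and 1.44 on the WT arrays, a change of 0.24. The groups did not overlap in any of these 3 comparisons, yet the exact permutation test (two-sided) gave p = 0.33 for each, also after Benjamini-Hochberg adjustment over the 3, which is the smallest p that 2 arrays against 2 allow. The order of the genes by size of difference, EXO first and XTH18 last, was the same in all alternatives that measured all of them, but it is not established by a test.

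**Figure D3:**
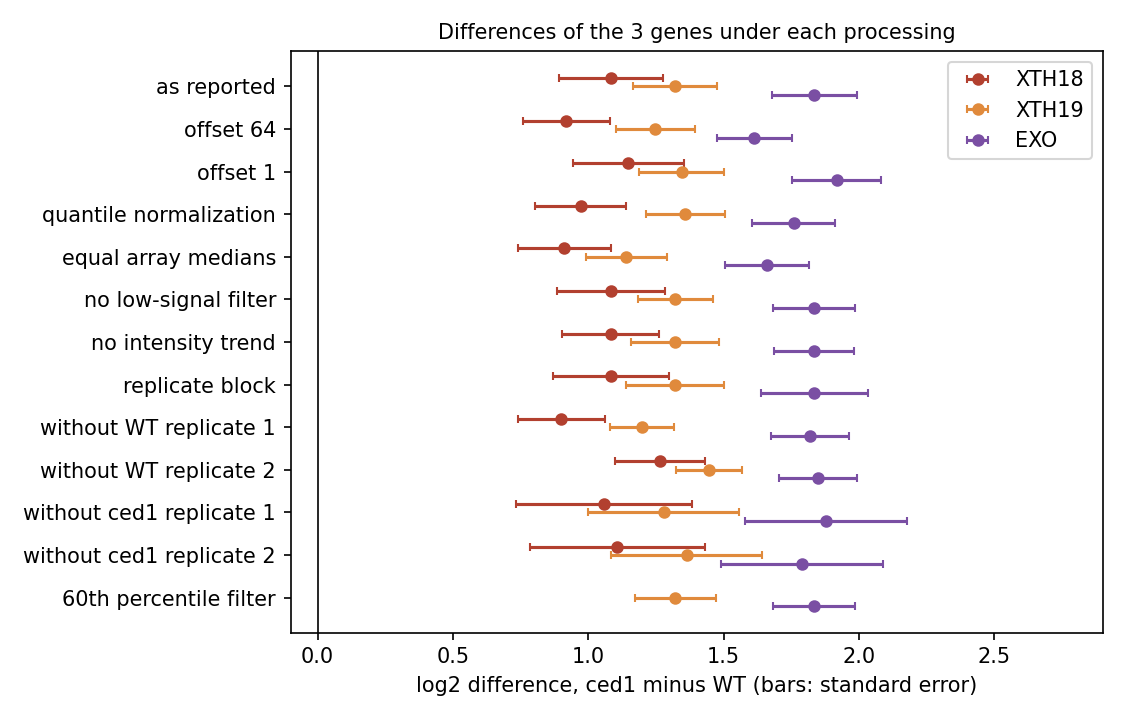
Log2 difference, ced1 minus WT (x axis, bars are the standard error), of XTH18, XTH19 and EXO as reported and under each alternative processing (rows). All points lie right of 0, between 0.90 and 1.26 for XTH18, 1.14 and 1.44 for XTH19, and 1.61 and 1.92 for EXO; XTH18 is left out by the 60th percentile filter.

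The other measured XTH genes differed among themselves. Of its 33 genes, 10 have a single-gene probe set here, and 5 of these passed the low-signal filter: XTH16, XTH18, XTH19, XTH27 and XTH32. Among the 3 tested genes other than XTH18 and XTH19, 2 were higher in ced1, none was lower and 1 was not called, where 23.2% of all tested probe sets were higher. One of the higher genes, XTH16, passed the filter only through its ced1 level, so the count supports nothing about the family.

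XTH32, from the family branch that also holds the hydrolytic member XTH31, had signals of 1312.1 and 1387.0 on the ced1 arrays, against 227.5 and 337.7 on the WT arrays. It was higher in ced1, by 2.22 ± 0.20 on the log2 scale (limma adjusted p = 3.95e-04). XTH16 had signals of 418.6 and 408.2 on the ced1 arrays, against 86.0 and 71.0 on the WT arrays, a log2 difference of 2.19 ± 0.19 (limma adjusted p = 3.52e-04). Its WT signals lay under the filter level, so it was tested because of its ced1 level and the size of its difference depends on the offset. Neither group overlapped the other for these genes. XTH27, listed as EXGT-A3 and known from leaf veins, had signals of 2900.3 and 2402.5 in ced1 and of 3394.4 and 2805.9 in WT. Its genotypes overlapped and the difference of -0.22 was not called, with an interval of -0.60 to 0.15 (limma adjusted p = 0.286). Without WT array 2 it was called lower, at -0.36.

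The other 5 measured XTH genes fell under the filter and were not tested, and a signal that low cannot be told from absence here. The root genes XTH20 and XTH21 had signals of 36.4 and 81.0, and of 19.1 and 31.8, in ced1, against 128.5 and 64.3, and 24.8 and 54.1, in WT. Both overlapped between genotypes. XTH26, a gene of root hairs, was at 14.7 and 3.3 in ced1 and at 27.3 and 34.1 in WT. XTH33, whose protein is held at the plasma membrane, was at 92.6 and 67.8 in ced1 and at 21.8 and 9.6 in WT, and XTH29 at 36.5 and 36.9 in ced1 and at 28.1 and 2.0 in WT. For XTH33 and XTH29 both ced1 signals were above both WT signals, as for 41.1% of all tested probe sets. The share among probe sets under the filter, where these genes lie, was not counted. For XTH26 both were below, a pattern whose share over all probe sets was not counted. Without the filter 5 of 10 XTH genes were called higher, where 2765 of all 22746 probe sets were. With it 4 of 5 were called higher, where 23.2% of all tested probe sets were. The 4 include XTH18 and XTH19, which were picked with earlier results known, and XTH16, tested because of its ced1 level. Neither count supports anything about the family.

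**Figure D4:**
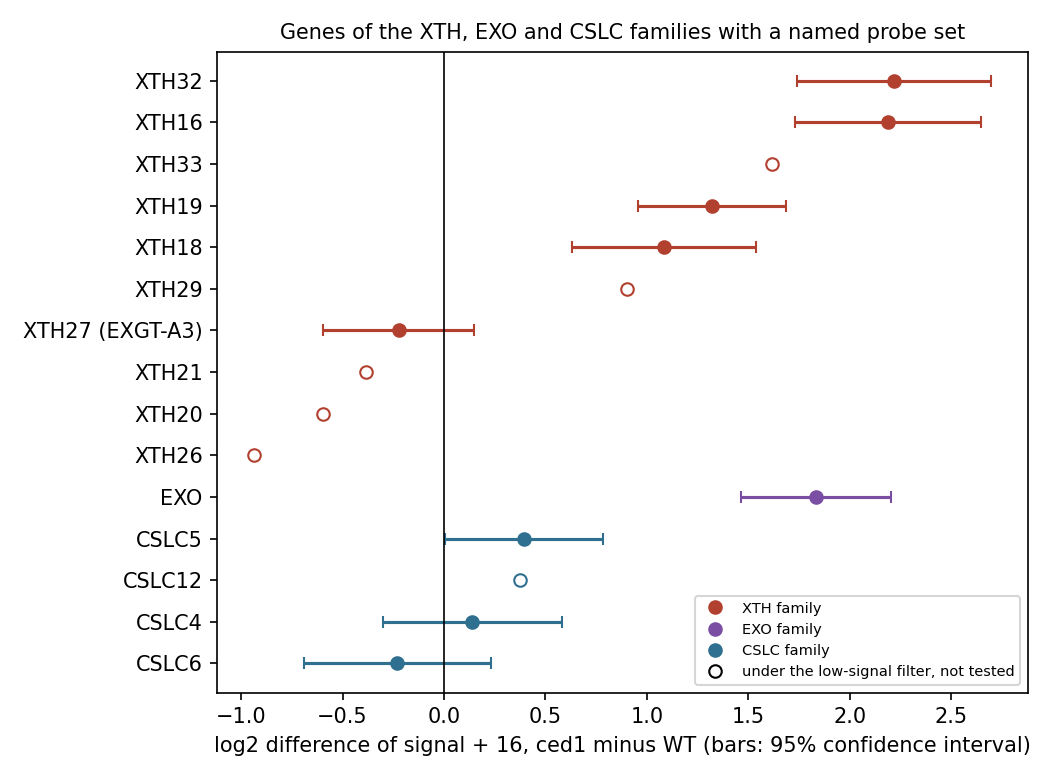
Log2 difference of signal + 16, ced1 minus WT (x axis), of each XTH, EXO and CSLC gene with a single-gene probe set (rows); filled points are tested genes with their 95% confidence interval, and open points lie under the low-signal filter. XTH32, XTH16, XTH19, XTH18 and EXO have intervals wholly above 0, while XTH27, CSLC4 and CSLC6 have intervals that include 0 and CSLC5, which was not called, has one that starts just above 0.

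Cross-hybridization between XTH18 and XTH19, whose coding sequences are alike, was not tested. Affymetrix gives the plain suffix _at to probe sets designed for 1 transcript, which both carry, and probe sequences were not used here. XTH18, XTH19 and EXO each had 1 probe set, so no second measurement of any of them was at hand.

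The synthesis of xyloglucan was covered thinly. Of the 11 genes listed for building or trimming the polymer, 1 has a single-gene probe set, CSLC4, which codes for the main synthase of the glucan backbone. CSLC4 had signals of 839.1 and 781.1 in ced1 and of 622.7 and 863.1 in WT, which overlapped, and was not called, at 0.14 with an interval of -0.30 to 0.58 (limma adjusted p = 0.575). In the whole CSLC family, compiled once the values were known, 3 of 4 members were tested and none was called, with a median of 0.14. CSLC5 was at 0.39 with an interval of 0.00247 to 0.78 (limma adjusted p = 0.0952), and CSLC6 at -0.23 with an interval of -0.69 to 0.23 (limma adjusted p = 0.377). CSLC12 fell under the filter. Without WT array 2, CSLC4 at 0.37 and CSLC5 at 0.51 were called higher, and without WT array 1, CSLC6 at -0.45 was called lower.

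For the brassinosteroid pathway, the known inducer of EXO, the annotation names few genes. None of the 11 listed genes of hormone synthesis has a single-gene probe set, and of 10 genes of signalling only the receptor gene BRL1 has one, with signals of 60.2 and 73.0 in ced1 and of 78.6 and 78.2 in WT, under the filter. Of 8 genes of the EXORDIUM family only EXO could be read, and of 16 brassinosteroid-induced genes only EXPA8, an expansin that loosens walls. EXPA8 had signals of 1409.8 and 1560.4 on the ced1 arrays, against 36.2 and 87.6 on the WT arrays. Its log2 difference was 4.35 ± 0.31 (limma adjusted p = 1.99e-04), a size that depends on the offset, since the WT signals lay under the filter level. These genes are too few to describe the hormone response.

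Since XTH18 and XTH19 are known from roots, the seedlings' root and leaf markers are given beside them. Of 13 root markers 3 have a single-gene probe set and 2 were tested. Of these 1 was lower in ced1, where 19.2% of all tested probe sets were lower. PYK10, a myrosinase of root ER bodies, had signals of 6310.0 and 5868.6 in ced1, against 9611.5 and 9388.9 in WT, and was lower in ced1 by -0.64 ± 0.11 on the log2 scale (limma adjusted p = 0.00442), but was not called without ced1 array 2, at -0.59. EXPA18, of root hairs, was not called, at -0.06 with an interval of -0.59 to 0.47, and EXPA7 fell under the filter. The summed signal of these 3 was 6064 to 6536 in ced1 and 9694 to 9788 in WT, nearly all of it from PYK10. Of 9 leaf markers 3 were tested, of which 2 were higher in ced1, where 23.2% of all tested probe sets were higher. These were the photosystem genes LHCB4.2 and PSAN, at 2.05 ± 0.48 and 0.91 ± 0.11. LHCB4.1 was not called, at 0.19, except without WT array 2, at 0.29. LHCB4.2 had signals of 18849.8 and 18824.5 in ced1, against widely spaced signals of 2431.5 and 8395.7 in WT. Its log2 difference was 1.16 without WT array 1 and 2.95 without WT array 2. The summed signal of the leaf markers was 50552 to 51496 in ced1 and 25482 to 33636 in WT. The part of root and leaf share in the levels of XTH18, XTH19 and EXO was not tested.

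Of the tested genes around XTH18, XTH19 and EXO on chromosome 4, 1 was called higher in ced1. Over all tested probe sets 23.2% were called higher, so this count does not set the neighbours apart. Taking on each side the nearest 3 genes with a single-gene probe set, 4 of the 6 around XTH18 and XTH19 were tested. AT4G30330, the fourth gene after XTH19, was higher in ced1, with signals of 552.6 and 543.6 in ced1 against 266.0 and 174.3 in WT, a log2 difference of 1.28 ± 0.22 (limma adjusted p = 0.00379). AT4G30310, AT4G30170 and AT4G30150 were not called, at 0.09, 0.01 and 0.51. XTH24, the XTH gene directly before XTH18, has no single-gene probe set. Around EXO 2 of 6 were tested, AT4G08960 at -0.08 and AT4G09040 at 0.45, and neither was called.

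The probe sets most like each gene were taken by the root-mean-square distance between log2 profiles over the 4 arrays, each centred on its own mean, among 7239 other tested single-gene probe sets. With 4 arrays in 2 genotypes this likeness mostly reflects an equal genotype difference and equal gaps between replicates. Nearest to XTH18 were AT5G15980, AT2G32560, AT5G63040, AT5G27330 and AT5G01090, at distances of 0.00509 to 0.0311. Nearest to XTH19 were SCPL42, a serine carboxypeptidase-like gene, APS3, an ATP sulfurylase, CLE41, a signalling peptide of vascular tissue, AT3G06070 and AT3G56200, at 0.0183 to 0.0323. Nearest to EXO were the cytochrome P450 gene CYP78A9, CRR42, AT2G29310, AT2G20670 and AT5G07900, at 0.0227 to 0.0486. The XTH pair were not each other's nearest profiles: at a distance of 0.127, XTH18 ranked 109 among the profiles like XTH19, and XTH19 ranked 222 among those like XTH18. EXO lay farther from both, at 0.397 from XTH18 and 0.275 from XTH19.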

How the data were processed

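The values analysed are the intensity (signal) of 22746 probe sets on 4 arrays, deposited by the authors as linear values. The submitters' processing notes name MAS5, which corrects for background and mismatch probes and scales each array. The sources used here give neither its version nor its settings. Detection calls were not used. Array medians were 186.4 and 187.5 in ced1 and 156.3 and 173.3 in WT. The number of arrays limits the precision.

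Genotypes and replicate numbers came from the sample titles. Nothing there says that replicates were grown apart, so a p-value reflects only how far these samples spread, which may be technical. Between 36 and 62 signals were identical in any pair of arrays, so none was a copy.

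Signals were analysed as log2(signal + 16), which understates changes of low genes, with limma 3.58.1 in R 4.3.3 (lmFit, eBayes with intensity trend, genotype as only factor). Probe sets under the 40th percentile of mean log2 signal were left out (9098), which left 13648, with Benjamini-Hochberg adjustment over all of them and a call at an adjusted p under 0.05. The fit was run on simulated data with known changes, which checks the code and not the calls made here. Each probe set had 2 residual degrees of freedom. Alternatives were offsets of 64 and 1, quantile normalization, equal array medians, no filter, a 60th percentile filter, no intensity trend, the replicate number as a block, and leaving out each array.

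Genes were named only through single-gene probe sets of the platform annotation (13513, of which 13436 matched the TAIR10.1 gene table; 503 name several genes and 8730 are not listed, and are unnamed here). The array values name no build, so no coordinates are given. Genes named are XTH18, XTH19 and EXO, all measured genes of the XTH and EXORDIUM families and of xyloglucan synthesis, up to 4 of each other list, 3 neighbours per side and 5 nearest profiles. The members and lists were chosen with earlier results of these data known. The CSLC family and the lists of the closing section were compiled after the values were in hand. Roles of genes are general knowledge.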

Additional observations from a re-analysis of the deposited data

How the results depend on the processing

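XTH18, XTH19 and EXO remained called higher in ced1 under every alternative that tested them (11 for XTH18, which the 60th percentile filter left out, and 12 each for XTH19 and EXO), with adjusted p from 1.19e-04 to 0.0422, from 9.13e-07 to 0.0105 and from 1.76e-08 to 0.00338. With 1 array left out, the array that stands alone is taken to vary as much as those of the other genotype. With each array left out in turn, the counts over all probe sets, 3161 higher and 2626 lower, ranged from 1200 to 4535 higher and from 1329 to 3333 lower; the lowest were without ced1 array 2, and without ced1 array 1 they were 1313 and 1426. In the XTH family 2 genes were called higher with the 60th percentile filter, which tests fewer genes, and the count called lower ranged from 0 to 1 without each array. The change of XTH19 minus XTH18 was 0.33 with offset 64 and 0.39 with quantile normalization, against 0.24. That of EXO minus XTH19 was 0.37 with offset 64, against 0.51. With offset 1 they were 0.20 and 0.57, so both moved with the offset. A larger offset understates changes of low signals more. The cause of the move with quantile normalization was not tested. Among the other listed genes, alternatives ended a call in 15 instances, added one in 9 and changed none in 315.

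With the replicate number as a replicate block, 3608 probe sets were higher and 2951 lower, and no call of XTH18, XTH19 or EXO changed. Deviations of same-numbered arrays correlated with r = 0.0912 over probe sets, and the labels do not say that a number marks a shared day, so the arrays share only a number.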

Other observations

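Of 17 listed genes of auxin response and transport, 4 have a single-gene probe set and 2 were tested, and both were lower in ced1, where 19.2% of all tested probe sets were lower. GH3.3, which codes for an enzyme that joins auxin to amino acids, had signals of 181.7 and 227.0 in ced1, against 619.5 and 343.5 in WT, a log2 difference of -1.12 ± 0.28 (limma adjusted p = 0.0170). Its relative GH3.5, listed as WES1, had 694.5 and 780.3 in ced1, against 942.8 and 1308.9 in WT, a difference of -0.58 ± 0.19 (limma adjusted p = 0.0426). GH3.3 was not called without ced1 array 1, at -0.98, and WES1 was called neither without ced1 array 1, at -0.50, nor without ced1 array 2, at -0.67, nor without the low-signal filter or the intensity trend. A list of all 12 named GH3 and Aux/IAA genes, compiled after the values were in hand, holds both GH3.3 and WES1. Of these 12, 5 were tested, of which 4 were lower and none was higher, where 19.2% of all tested probe sets were lower. Among the lower genes, IAA30 passed the filter only through its WT level, so the count supports nothing about these families. GH3.17, which conjugates auxin too, was not called (it was lower without WT array 2, at -0.45). The median of the 5 tested genes, IAA30 included, was -0.58, beside 0.07 over all tested probe sets. The genes that were not tested lay under the filter. Among these, both ced1 signals were above both WT signals for GH3.9, IAA20, IAA29 and IAA33, and below for IAA34. GH3.1 and IAA31 overlapped. Both ced1 signals lay above both WT signals for 41.1% of all tested probe sets. That share was not counted among probe sets under the filter, nor was the share with both below. IAA18 and IAA30, of the Aux/IAA regulators, differed by -0.57 and -1.20 (the ced1 signals of IAA30 lay under the filter level), and neither was called without ced1 array 1, at -0.56 and -1.05, nor IAA18 without ced1 array 2, at -0.58. IAA30 was not tested without WT array 2, nor with the stricter low-signal filter.

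Among 13 genes for wall polymers other than xyloglucan, a list also compiled after the values were in hand, 9 were tested, 3 were higher in ced1 and none was lower, with a median of 0.40. Over all tested probe sets 23.2% were higher and the median was 0.07, so this count is near the background. Of the genes that were not tested, CSLA01 and CSLA03 had both ced1 signals above both WT signals, as for 41.1% of all tested probe sets. The share among probe sets under the filter was not counted. IRX15 and PME61 overlapped. The pectin methylesterase genes PMEPCRF and ATPMEPCRB, whose enzymes alter pectin charge, were higher, with mean signals of 873 ± 13.6 and 344.9 ± 30.0 in ced1, against 429.1 ± 62.8 and 98.7 ± 50.3 in WT (SD, n = 2 each); the WT mean of ATPMEPCRB lay under the filter level. COB, a gene for oriented cell expansion, was higher by 0.49 (limma adjusted p = 0.0310), but not with equal array medians, at 0.31, without the intensity trend, or without ced1 array 1 or 2, at 0.46 and 0.53. The 6 that were not called ranged from CSLD2 at -0.40 to GUT2 at 0.44; CSLD2 was called lower without WT array 1, at -0.53, and with equal array medians, at -0.58. The wall-sensing receptor kinase gene THE1 was higher by 0.72 (limma adjusted p = 0.0168), though not without ced1 array 1, at 0.73, or array 2, at 0.72. FER, a related kinase gene, was at -0.09 and was not called, but was called lower without WT array 1, at -0.37. BRH1, a brassinosteroid-responsive RING gene, was at 0.09 and was not called.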
